A study of Homo sapiens with 28 samples.

Results

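ARID1B carrying the S320_G327del deletion was compared with wild-type ARID1B by the open chromatin found in AN3CA cells, an established line of human endometrial carcinoma. The comparison rests on 4 of the 28 ATAC-seq libraries of the series: 2 from cells expressing the deletion form, whose genotype label also names it mutant M2, and 2 from cells expressing wild-type ARID1B. The libraries were chosen by their titles, and the names of their peaks carry the same date code. The labels do not say what that date marks. Libraries 3 and 4 of the empty vector, AN3CA cells with no added ARID1 protein, carry that date code too and served as the floor. The 2 libraries of wild-type ARID1A, the paralogue of ARID1B, and the other constructs of the series have other date codes and were used only to describe regions. All groups share the cell line and the growth conditions. The labels do not say whether replicates came from separate cultures, so each p-value measures no more than the spread of these samples, and that spread may be technical. The amount of ARID1B protein in each library was not analysed here, so a difference in protein and a difference in function cannot be told apart.

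ARID1B and ARID1A are the large ARID-domain subunits of the canonical BAF complex, a chromatin remodeler that uses ATP to move or eject nucleosomes. A given complex holds one or the other, and the subunit forms the core on which the ATPase module is built. Both proteins have long disordered stretches near the N terminus, ahead of the ARID domain that binds DNA and the C-terminal region that joins the complex. BAF complexes with an ARID1 subunit are known for keeping enhancers accessible, while many promoters stay accessible without them. ATAC-seq reads accessibility through a transposase that cuts and tags DNA not wrapped in nucleosomes, and a peak is a stretch with more cuts than its surroundings.

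Cells with the deletion form had open most of the sites seen with wild-type ARID1B, and their strongest peaks lay outside the open sites of the empty vector more often than those of wild type. On chromosomes 1 to 22 and X the deletion libraries had 63385 and 70269 peaks and the wild-type libraries 63482 and 59776. Empty vector libraries 3 and 4 had 24527 and 28314. The list of each ARID1B library was thus over 2 times as long as that of either empty vector library, and the 2 constructs overlapped in list length. Peaks covered 41.4 and 48.9 Mb with the deletion, 42.7 and 37.4 Mb with wild type, and 19.1 and 23.7 Mb with the empty vector. The files give no read counts, so depth is unknown, and list length reflects both depth and chromatin.

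To remove list length from the comparison, each list was cut to its 59776 most significant peaks by the -log10 p-value that the authors deposited. Overlapping peaks of the 4 lists were merged into 77793 regions, of which 63641 were called in at least 2 libraries. All 4 libraries called 43724 regions (68.7%), and 3 libraries called 8960. Only the 2 deletion libraries called 3930 regions (6.18% of 63641), here named deletion-only. Only the 2 wild-type libraries called 3426 regions (5.38%), here named wild-type-only. For scale, 3601 regions were called by 1 library of each construct, at 825 to 1074 for each of the 4 such pairs. The 2 replicates of a construct alone therefore shared over 3 times as many regions as any mixed pair did. The Jaccard index, the shared regions of 2 libraries over the regions of either, was 0.782 between the deletion libraries and 0.766 between the wild-type libraries. It ran from 0.697 to 0.712 over the 4 mixed pairs, so both replicate pairs were more alike than any mixed pair.

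The deletion-only and wild-type-only regions use all 4 libraries, so differences in calls were also scored in libraries left out of the choice, over regions chosen from 1 library of each construct. Regions called by deletion library 1 and not by wild-type library 1 numbered 10189. Deletion library 2 called 58.9% of these and wild-type library 2 called 28.4%. Of 10780 regions chosen the same way from the libraries numbered 2, deletion library 1 called 59.8% and wild-type library 1 called 33.3%. The mean difference was 28.5 percentage points in favour of the deletion. Of 10302 regions chosen in the other direction, wild-type over deletion, from the libraries numbered 1, wild-type library 2 called 55.3% and deletion library 2 called 32.4%. Of 10351 such regions from the libraries numbered 2, wild-type library 1 called 53.4% and deletion library 1 called 28.2%. The mean difference was -24.0 percentage points, so each construct recovered its own side more often in both splits. With 2 values a side, an exact permutation test cannot give a two-sided p below 0.333.

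**Figure D1:**
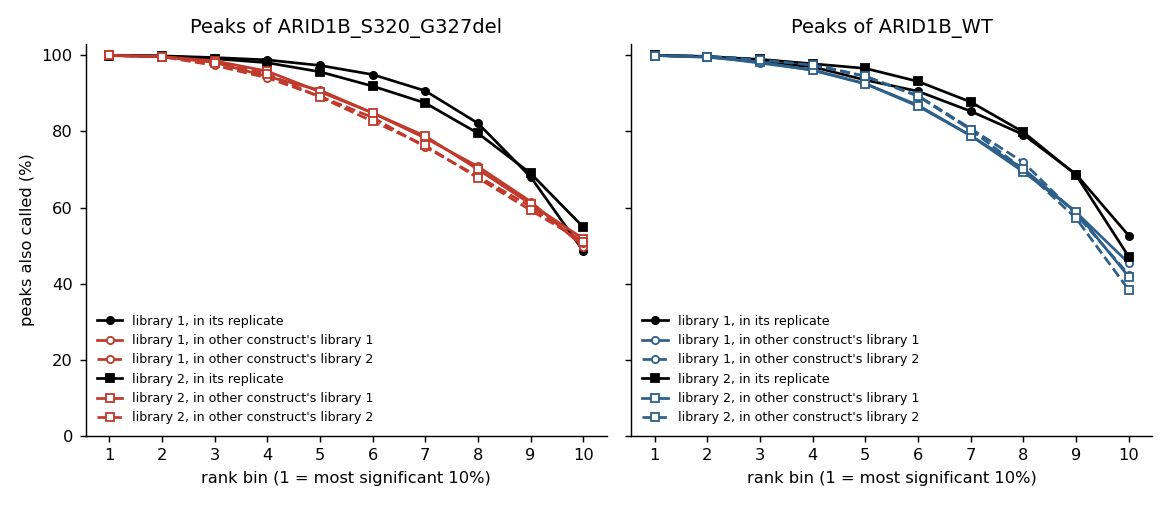
Percent of the peaks of each ARID1B library (y axis) that another ARID1B list also holds, by 10 rank bins from the most to the least significant (x axis, 5977 or 5978 peaks a bin). Black symbols show the other replicate and coloured open symbols the 2 libraries of the other construct. In bin 1 all shares are at least 99.9%, and in bin 10 the share in the other construct's libraries is 38.4% to 51.8%.

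The differences in calls were fewest among the strongest peaks. Each list was divided by rank into 10 bins, bin 1 being the most significant 10% of its peaks. In bin 1, at least 99.9% of the peaks were called by each library of the other construct. In bin 10, deletion library 1 shared 48.6% of its peaks with its replicate and 49.7% and 50.8% with the wild-type libraries. In deletion library 2 these shares were 54.8% with its replicate and 51.8% and 51.0% with wild type. Wild-type library 1 shared 52.6% of bin 10 with its replicate and 45.4% and 42.4% with the deletion libraries. In wild-type library 2 these shares were 47.1%, 41.8% and 38.4%. In bin 10, sharing between constructs was thus close to sharing between replicates for the deletion libraries and lower for the wild-type libraries. Further up, the deletion libraries shared more with each other. In bin 7 they shared 90.7% and 87.5% with their replicate and 75.9% to 78.8% with wild type. The wild-type libraries there shared 85.3% and 87.8% with their replicate and 78.9% to 80.8% with the deletion.

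Deletion-only regions had a median width of 425 bp and wild-type-only regions one of 417 bp, against 813 bp for regions of all 4 libraries. Their median mean ranks were 45271 and 48686, against 23445 for the regions of all 4, where rank 1 is the most significant peak. Among the first 25% of the list lay 8 deletion-only and 10 wild-type-only regions. In the last 25% lay 52.0% of the deletion-only and 67.5% of the wild-type-only regions, against 9.17% of those called by all 4. The 8 and the 10 regions near the top are thus the exceptions among 3930 and 3426. A class set by a cut in rank tends to lie near that cut, so these ranks partly follow from the trimming. With 10000 peaks, 51.0% of the deletion-only and 63.0% of the wild-type-only regions lay in the last 25%. Their median widths were then 809 and 888 bp, against 1177 bp for regions of all 4.

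A peak below the trimmed length can still be in a full list. The full wild-type lists held 319 (8.12%) of the deletion-only regions, all of them in wild-type library 1, because wild-type library 2 is the shortest list and was not trimmed. The full deletion lists held 1370 (40.0%) of the wild-type-only regions. In the full lists, without trimming, 5358 of 68388 regions (7.83%) were called by both deletion libraries alone and 2385 (3.49%) by both wild-type libraries alone. Deletion library 2, the longest list, and wild-type library 2, the shortest, fall on opposite sides of that count. Its imbalance moves with list length, and the part of depth in it was not tested.

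The 2 classes differed in how often the empty vector cells were open at the same places. Empty vector library 3 called 2.82% of the deletion-only regions and 7.71% of the wild-type-only regions, and library 4 called 4.89% and 12.2%. Either of them called 5.57% of the deletion-only and 13.4% of the wild-type-only regions, against 51.2% of the regions of all 4 ARID1B libraries. In full lists the shares were 5.60% and 12.2%. Empty vector libraries 1 and 2, with other date codes, gave 11.7% and 13.0% for deletion-only and 23.3% and 24.6% for wild-type-only regions. All 4 empty vector libraries thus called the wild-type-only class more often. The 95% Wilson intervals of these shares reach at most 1.67 points either way, and they cover counting error only.

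With each list cut to 24527 peaks, the length of the shorter empty vector list, the contrast was wider. At that length 1678 of 26278 regions (6.39%) were deletion-only and 1335 (5.08%) were wild-type-only. Empty vector libraries 3 and 4 called 11.4% and 13.3% of the former and 43.4% and 48.7% of the latter, with Wilson intervals of at most 2.68 points either way. Either library called 14.2% against 50.1%, and 74.3% of the regions of all 4 ARID1B libraries. These are differences of strength more than of presence, since the full wild-type lists held 94.8% of these deletion-only regions and the full deletion lists held 97.4% of these wild-type-only regions. Among the 10000 strongest peaks, 627 of 10726 regions (5.85%) were deletion-only and 495 (4.61%) wild-type-only. An empty vector list held 25.5% and 80.2% of them, against 88.5% of the regions of all 4 ARID1B libraries.

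**Figure D2:**
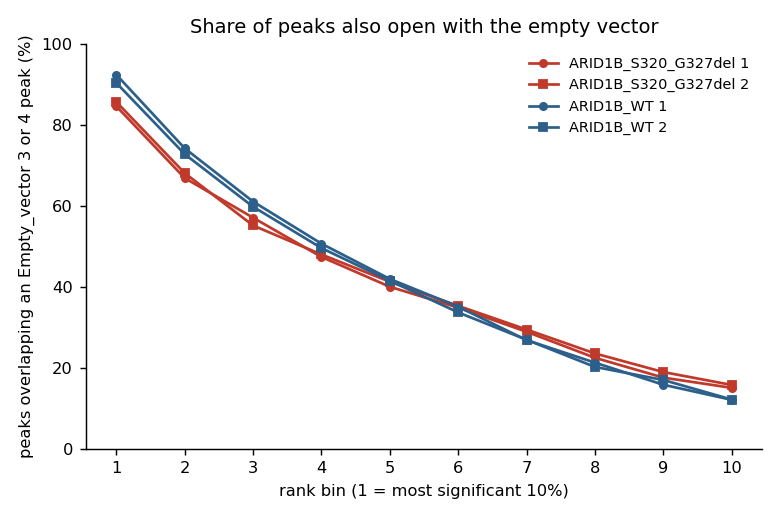
Percent of the peaks of each ARID1B library that overlap a peak of empty vector library 3 or 4 (y axis), by 10 rank bins from the most to the least significant (x axis). Red is the deletion and blue wild type, with circles for library 1 and squares for library 2. The deletion libraries lie below wild type in bin 1 (84.6% and 85.7% against 92.4% and 90.4%) and above it in bin 10 (15.1% and 15.8% against 12.1% and 12.2%).

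Along the list the difference in overlap with the empty vector changed sign. In rank bin 1, 84.6% and 85.7% of the peaks of the deletion libraries overlapped an empty vector peak, against 92.4% and 90.4% with wild type. The difference of the means was -6.25 percentage points, and the groups did not overlap (exact permutation test, two-sided p = 0.333, the smallest possible). In bin 5 the shares were 40.0% and 41.3% against 42% and 41.5%, a difference of -1.09 points. In bin 10 they were 15.1% and 15.8% against 12.1% and 12.2%, a difference of 3.29 points in the other direction. Over all 59776 peaks the shares were 41.5% and 42.1% with the deletion and 43.2% and 42.4% with wild type. In all, nearly the same share of the peaks of either form therefore overlapped an empty vector peak, but these peaks lay at different ranks.

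Recovery of sites that the empty vector lists lack was then scored library by library. With all 6 lists of that date code cut to 24527 peaks, 9470 regions were called by at least 2 of the 4 ARID1B libraries and by neither empty vector library. The deletion libraries called 84.4% and 85.1% of them (mean 84.7% ± 0.493, SD, n = 2). The wild-type libraries called 74.0% and 74.9% (74.5% ± 0.612, SD, n = 2). Both deletion libraries were above both wild-type libraries, by 10.2 percentage points on average, with an exact two-sided permutation p of 0.333, the smallest that 2 against 2 allows. The regions were chosen by calls of the same 4 libraries. Without deletion library 1 or 2 the set held 7624 or 7631 regions, and the difference was -3.51 or -4.36 points. Regions shared by both wild-type libraries then stay in the set, while those called by the deletion libraries alone can no longer enter it. With 1 library of each construct, an alternative chosen after seeing the data, the difference was 9.01 to 12.3 points in the 4 pairs. Among the 10000 strongest peaks of each list the shares were 85.6% and 84.5% against 64.6% and 67.8%, a difference of 18.9 points. In full lists they were 84.0% and 90.6% against 80.5% and 75.7%, a difference of 9.21 points, with the longest ARID1B list at the highest share and the shortest at the lowest.

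Sites that the empty vector cells already had open showed the reverse. Of 21392 regions called in both empty vector lists at 24527 peaks, the deletion libraries called 68.5% and 69.0% (68.7% ± 0.321, SD, n = 2). The wild-type libraries called 74.2% and 72.8% (73.5% ± 0.952, SD, n = 2). The difference was -4.77 points, again without overlap (exact permutation test, two-sided p = 0.333, the smallest possible). Lists of equal length trade one kind of site against the other, so the 2 differences are not independent of each other. Counted against the same 2 empty vector libraries, regions in both libraries of a construct and in neither empty vector list numbered 7248 with the deletion and 6098 with wild type. Regions in both empty vector lists and in neither library of the construct numbered 5485 and 4447. The 2 counts of each kind share their empty vector libraries, and most of their regions are the same. Of the regions in neither empty vector list, 4647 were common to both constructs. They made up 64.1% of the deletion count and 76.2% of the wild-type count. Of the regions in both empty vector lists and in neither library of the construct, 3800 were common to both constructs (69.3% and 85.5%).

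**Figure D3:**
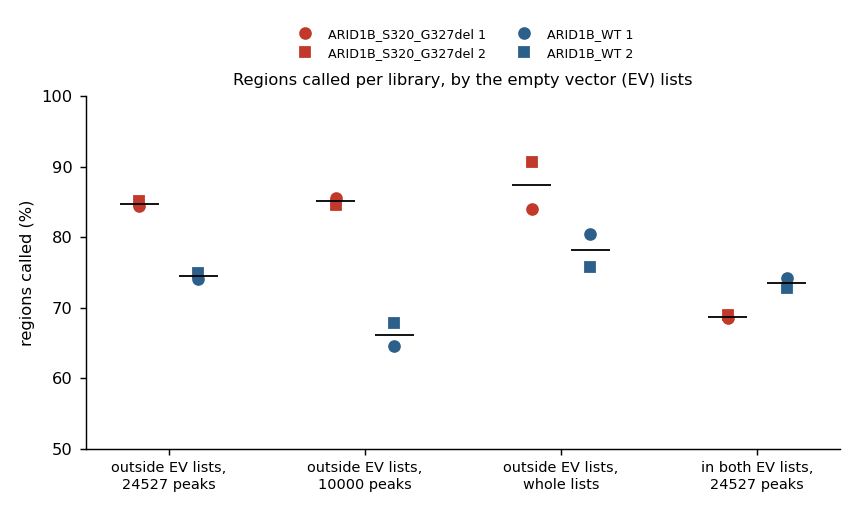
Percent of regions called by each ARID1B library (y axis, from 50 to 100%), for regions outside both empty vector (EV) lists at 3 list lengths and for regions in both EV lists. Red is the deletion, blue wild type, circles and squares libraries 1 and 2, and black lines the means. At 24527 peaks the deletion libraries are higher outside the EV lists (84.7% against 74.5%) and lower inside them (68.7% against 73.5%).

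Calls in the 24 other libraries of the series placed the 2 classes further. Among the 59776 strongest peaks, the full lists of wild-type ARID1A libraries 1 and 2 called 65.9% and 46.2% of the deletion-only regions and 67.4% and 49.3% of the wild-type-only regions. Both ARID1A libraries called 42.5% of the former and 45.5% of the latter. The classes differed by less here than the 2 ARID1A libraries did from each other, and its sign turned in 3 of the 4 pairs that set 1 library of each construct against the other. No list of the other 24 libraries held 804 (20.5%) of the deletion-only and 600 (17.5%) of the wild-type-only regions. In 10 of these libraries, those of ARID1A_AQGscramC1C2, ARID1A_Y42S, ARID1B_A457_G461del, ARID1B_Block13del and ARID1B_Block9del, the genotype label reads as the empty vector although the title gives the construct, and the title was followed. The gap was wider for the ARID1B form titled A457_G461del, whose 2 libraries called 20.3% and 19.2% of the deletion-only regions and 33.9% and 30.6% of the wild-type-only regions. Deletion-only regions were called less often than wild-type-only regions in 23 of the 24 libraries. The exception was ARID1A_DBDmut library 1, with 36.6% against 34.6%.

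At 24527 peaks all 24 other libraries called the deletion-only class less often, with differences of -35.3 to -0.407 percentage points and a median of -24.1. Wild-type ARID1A called 97.8% and 91.7% of the deletion-only regions and 98.2% and 94.2% of the wild-type-only ones. ARID1B_A457_G461del called 86.1% and 85.6% against 93.3% and 90.9%. The libraries of ARID1B_Block9del, another ARID1B construct, called 15.8% and 16.7% of the deletion-only regions against 49.6% and 50.1%. The 4 empty vector libraries called 11.4% to 23.4% against 43.4% to 55.7%. Of the regions of all 4 ARID1B libraries, wild-type ARID1A called 99.97% and 99.8% and A457_G461del 99.7% and 99.6%, more than of either class. The gap between the classes was wider in the empty vector than in these 2 constructs, but the sizes of the gaps cannot be compared. Full lists of the 2 constructs held 50726 to 76530 peaks and called 85.6% to 98.2% of both classes, which leaves little room for a gap. Those of the empty vector held 24527 to 49468 peaks.

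**Figure D4:**
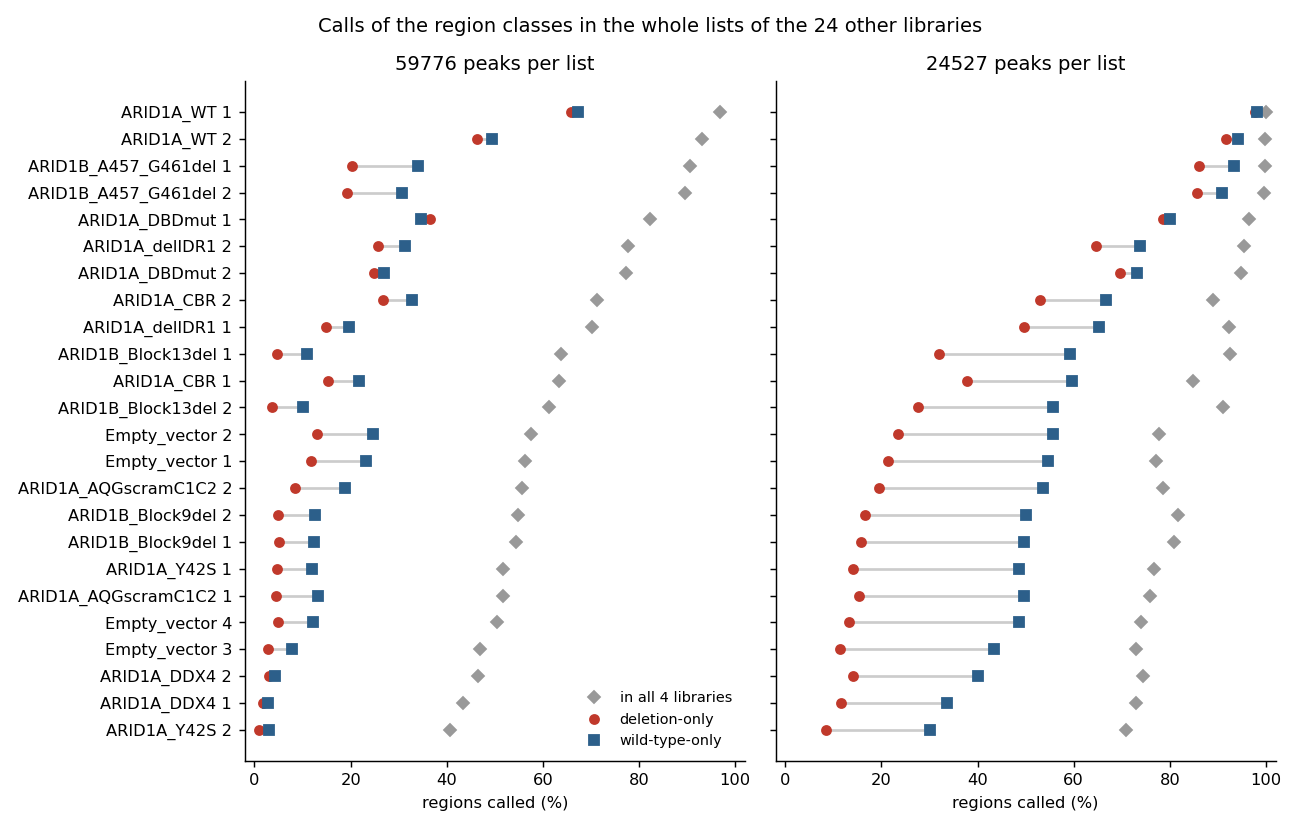
Percent of regions (x axis) that each of the 24 other libraries (y axis) called in its full list, for regions of all 4 ARID1B libraries (grey), deletion-only (red) and wild-type-only regions (blue). The left panel uses lists of 59776 peaks and the right panel lists of 24527. At 24527 peaks every library calls the wild-type-only class more often, and deletion-only minus wild-type-only runs from -35.3 to -0.407 points.

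The best-ranked single regions differed in the same direction, but they do not stand for their classes. The regions are given in hg19 coordinates, and their fold enrichments are the authors' own values, to be read within a list. The 8 deletion-only regions with the best mean rank were 235 to 530 bp wide, and 6 of them were in none of the 4 empty vector lists. In first place stood chromosome 7, 26614058 to 26614402, at ranks 6804 and 11227 with fold enrichments of 9.79 and 8.13 in the deletion libraries. No full wild-type or empty vector list held it, while both wild-type ARID1A lists did. The next were chromosome 6, 6876059 to 6876588 (ranks 12739 and 9902, fold 7.29 and 7.43), and chromosome 1, 218669991 to 218670277 (ranks 13839 and 11185, fold 5.30 and 5.51). Both were likewise in both wild-type ARID1A lists and in no empty vector or wild-type ARID1B list. The fourth, chromosome 7, 31822128 to 31822365 (ranks 14436 and 10899, fold 9.20 and 10.2), was in 2 of the 4 empty vector lists, those with other date codes. Of the 8 regions, 7 were in both wild-type ARID1A lists.

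The 8 best-ranked wild-type-only regions were 209 to 475 bp wide and were each in 3 or 4 of the 4 empty vector lists. At the head stood chromosome 4, 190970973 to 190971181, at ranks 1981 and 4383 with fold enrichments of 17.1 and 14.0 in the wild-type libraries. It was in 3 empty vector lists and in neither deletion list. Chromosome 12, 56519993 to 56520236 (ranks 17496 and 5099, fold 3.43 and 4.82), was in all 4 empty vector lists. Chromosome 17, 17936862 to 17937164 (ranks 5980 and 16986, fold 11.4 and 7.76), was in 3, and chromosome 6, 42629388 to 42629629 (ranks 11421 and 11705, fold 9.64 and 9.20), in 4. Of these 8 regions, 6 were in both wild-type ARID1A lists. None of the 16 named regions was in a full list of the other construct. The 8 best-ranked regions seen with wild type alone were thus open without added ARID1B too. Of the 8 seen with the deletion alone, 6 were not. Strong peaks often overlap an empty vector peak. In rank bin 3, 61.1% and 59.8% of wild-type peaks and 57.1% and 55.2% of deletion peaks overlapped one of library 3 or 4. The 8 wild-type-only regions are unlike their class, of which 86.6% were in neither of these 2 lists, against 94.4% of the deletion-only class.

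Regions called by all 4 libraries can differ in strength, which was read from their ranks in lists of 59776 peaks. Of these 43724 regions, 20162 were in both full lists of empty vector libraries 3 and 4 and 21330 in neither. Among the 20162, the median rank was 14132 and 13857 in the deletion libraries and 12415 and 12796 with wild type. The deletion libraries thus placed sites already open with the empty vector further down. Among the 21330, the median rank was 29292 and 29314 with the deletion and 31029 and 30368 with wild type, so sites not open with the empty vector were further up.

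Both deletion libraries ranked a region ahead of both wild-type libraries in 9395 of the 43724 regions (21.5%), and both wild-type libraries were ahead in 11023 (25.2%). Among regions in both empty vector lists these shares were 12% and 28.5%. Among regions in no empty vector list they were 30.9% and 22%. Ranks were turned into normal quantile scores, higher for stronger peaks, and the deletion mean minus the wild-type mean was taken. Its median was -0.08 in regions of both empty vector lists and 0.05 in those of none, and it was above 0 in 36.8% and 54.3% of them. The correlation of scores across regions was 0.888 and 0.895 within constructs and 0.825 on average over the 4 pairs between them, over regions that are not independent replicates.

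**Figure D5:**
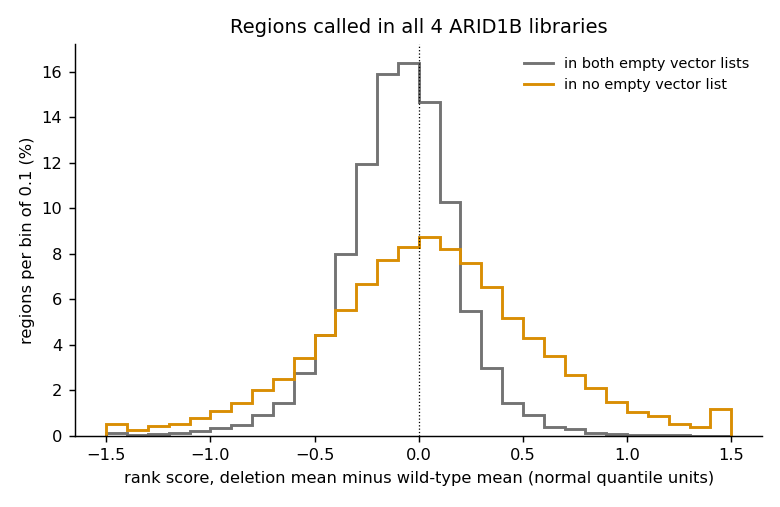
Distribution of the difference in rank score, deletion mean minus wild-type mean in normal quantile units (x axis), as the percent of regions per bin of 0.1 (y axis), for regions called in all 4 ARID1B libraries. Grey is the 20162 regions in both empty vector lists and orange the 21330 in neither, and the end bins hold all values beyond them. The grey distribution is narrow with a median of -0.08, and the orange one is wider with a median of 0.05.

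No single region passed the test at this replication when all regions were tested. In limma's moderated test of the scores over 43724 regions, 0 regions (0%) were higher and 0 (0%) were lower with the deletion at a Benjamini-Hochberg adjusted p under 0.05. The smallest adjusted p was 0.0851. At an unadjusted p under 0.05, 3609 regions were higher and 3162 lower, of which 87.7% and 61.8% were in neither list of empty vector libraries 3 and 4, against 48.8% of all regions tested.

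When only the 21862 regions with the better mean rank, the upper 50%, were tested, 370 (1.69%) were higher and 82 (0.375%) were lower with the deletion at an adjusted p under 0.05. Of the 370, 340 (91.9%) were in neither list of empty vector libraries 3 and 4, and of the 82, 36 (43.9%) were, against 30.6% of the 21862. Wild-type ARID1A libraries called 99.2% and 98.1% of the 370, against 99.9% and 99.5% of the 21862. ARID1B_A457_G461del called 98.9% and 98.6% of the 370, against 99.4% and 99.2%. ARID1B_Block9del called 15.9% and 18.4% of them and ARID1A_DDX4 10.8% and 15.7%, against 75.2%, 76.1%, 66.7% and 68.8% of the 21862. ARID1A_Y42S called 11.9% and 5.41% of them and ARID1A_AQGscramC1C2 10.5% and 19.5%, against 71.3%, 64.1%, 70.7% and 73.7%. The empty vector, ARID1B_Block9del, ARID1A_DDX4, ARID1A_Y42S and ARID1A_AQGscramC1C2 thus called the 370 less often than the tested regions. Wild-type ARID1A and A457_G461del called them nearly as often. ARID1A_CBR, ARID1A_delIDR1, ARID1A_DBDmut and ARID1B_Block13del lay between, at 45.9% to 89.2%. The full lists held 76530 and 62031 peaks for wild-type ARID1A and 52711 and 50726 for A457_G461del. They held 30104 and 30102 for ARID1B_Block9del and 21094 and 23559 for ARID1A_DDX4. For ARID1A_Y42S they held 28855 and 19433 and for ARID1A_AQGscramC1C2 28880 and 36113. The part of list length in these shares was not tested. The 370 and 82 limma calls depend on leaving out the weaker regions. The cut was the median, 23445, of the mean rank over the same 4 libraries. A region weak with 1 construct could thus enter through strong ranks with the other.

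Examples from these calls were taken by the smallest p, after these values had been seen. The examples on chromosomes 10, 1 and 15 ranked past the cut of 23445 in both libraries of 1 construct. They entered the tested regions only through their ranks with the other construct, so their p-values are not independent of that choice. On chromosome 10, 121608652 to 121609277 ranked 5012 and 4580 with the deletion and 42364 and 40920 with wild type, with fold enrichments of 8.12 and 8.26 and of 5.08 and 5.50. Its score difference was 1.92 (SE 0.176, limma adjusted p = 4.17e-05), and it was in no empty vector list. Chromosome 1, 229230527 to 229231044, ranked 3261 and 2622 against 25948 and 33786 (score difference 1.65, SE 0.185, limma adjusted p = 0.000441). It too was in no empty vector list, as were 5 of the 6 regions with the smallest p in this direction. In the other direction, chromosome 15, 81775895 to 81777304, ranked 36930 and 30583 with the deletion and 8568 and 8654 with wild type (score difference -1.23, SE 0.181, limma adjusted p = 0.00247). Chromosome 14, 51776950 to 51777792, ranked 25528 and 20192 against 4631 and 3243 (score difference -1.21, SE 0.182, limma adjusted p = 0.00254). Both were in all 4 empty vector lists and in all 24 lists of the other libraries. In this direction, 5 of the 6 regions with the smallest p were in all 4 empty vector lists. These examples do not stand for the set of 82 lower regions. Of that set 52.4% were in both lists of empty vector libraries 3 and 4, against 67.1% of the 21862 regions tested.

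The 2 classes were spread over all chromosomes. Deletion-only regions outnumbered wild-type-only regions on 17 of 23 chromosomes. The order of the totals turns, to 6461 against 7468 and 6346 against 7509, without wild-type library 1 or 2, when 1 library alone defines the wild-type class. Chromosome X held 124 deletion-only and 74 wild-type-only of its 1417 regions (8.75% and 5.22%). Chromosome 18 held 94 and 65 of 1077 (8.73% and 6.04%). On chromosome 19 the order was the other way, with 65 and 80 of 2235 (2.91% and 3.58%), and on chromosome 13 with 87 and 108 of 1532 (5.68% and 7.05%). These chromosomes were picked after their values were seen, and the differences between them were not tested.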

How the data were processed

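ATAC-seq peak lists of 28 libraries were used, 1 list per library. The submitters' processing notes list MACS2, SAMtools 0.1.19, Picard 2.8.0, Bowtie2 and bcl2fastq, with hg19 as the build. The sources used here do not give the options of aligner or caller. The series titles name ATAC-seq while its design text describes CUT&Tag, and the lists were taken as ATAC-seq. For each peak the authors deposited a fold enrichment (a ratio over the caller's background), a -log10 p-value and a -log10 q-value. The authors' lists also hold a score, nearly always 10 times the -log10 q-value rounded down, which was not used.

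Peaks on chromosomes 1 to 22 and X (at least 99.8% of each of the 6 lists compared) were ranked by -log10 p-value, trimmed to equal length and merged. A library called a region if a peak overlapped it by at least 1 bp. Regions of at least 2 libraries were kept. Empty vector lists were full, except in the counts of recovery, where they were trimmed like the others. Scores are normal quantiles of ranks, compared with limma 3.58.1. Single values were compared by exact permutation. Python 3.11.15 and R 4.3.3 were used, and the steps were tested on simulated data. Members, lists and tests were chosen with earlier results of these data known. Named regions are the 8 of each class with the best mean rank. The limma rule (the 6 smallest p in each direction past the threshold) named none in the fit of all regions. Alternatives were the list length, ranking by fold, overlap, a q-value minimum, windows, libraries left out and a replicate block. Gene names, promoter shares, gene lists, motifs and cell type markers are not given, because no hg19 annotation or genome was used here.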

Additional observations from a re-analysis of the deposited data

How the results depend on the processing

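The counts of deletion-only and wild-type-only regions were 627 and 495 with 10000 peaks (5.85% and 4.61% of 10726 regions). With 24527 peaks they were 1678 and 1335 (6.39% and 5.08% of 26278). In windows of 500 bp they were 10261 and 6930. They ran from 6346 to 7353 and from 5524 to 7509 with 1 library left out, where a class can rest on 1 library of a construct. The held-out differences kept their sign throughout. At deletion-side and wild-type-side regions they were 32.1 and -16.5 in full lists, 18.4 and -11.6 with 10000 peaks and 24.3 and -15.2 ranked by fold, and the second was -20.1 at 24527 peaks. No held-out value exists with a library left out, since both numbers of both constructs are needed. The recovery difference ran from -4.36 to 17.6 with 1 library left out. It turned negative when either deletion library was left out. Regions shared by both wild-type libraries then stay in the set, and those of the deletion libraries alone do not. In pairs of 1 library per construct, an alternative chosen after seeing the data, the recovery difference was 12.3, 9.10, 12.2 and 9.01. In the same pairs the difference in ARID1A_WT calls was -4.43, 1.30, 0.0145 and 5.80, against -2.30 in the main comparison, and the share of construct-only regions in an empty vector list differed by -0.80 to -9.97 points. The difference in ARID1A_WT calls was -0.457 with 10000 peaks and -8.83 ranked by fold, and ran from -17.9 to 17.7 with 1 library left out, so its direction is not settled. The limma counts of 0 became 370 higher and 82 lower among the upper 50% of regions by mean rank over the same 4 libraries. They became 1 lower with 6 libraries in the fit, and stayed at 0 with each library left out. With a replicate block the recovery difference was 10.2 (exact sign-flip permutation p = 0.5, the smallest possible) and limma called 0 regions in either direction. Scores of same-numbered libraries did not deviate together across regions (correlation -0.042). The scores thus show no pairing by number, but this value cannot tell whether the libraries were prepared in pairs. Depth is unknown and was not compared between libraries. Promoter shares, gene lists and motif shares were not run.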

Other observations

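Deletion-only and wild-type-only regions lay at like distances from other open regions. The median distance to the nearest region of all 4 libraries that an empty vector list held was 43.5 kb for deletion-only and 41.1 kb for wild-type-only regions. For all 63641 regions it was 39.1 kb. To the nearest region of all 4 libraries in no empty vector list it was 28.2 kb and 26.9 kb, against 34.5 kb. Within 5 kb of the latter kind lay 11.8% of the deletion-only and 10.6% of the wild-type-only regions, against 7.89% of all 63641. Within 5 kb of the former kind lay 8.04% and 6.74%, against 7.29%.

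Neither class piled up in a few places. Over windows of 1 Mb in hg19, picked after their values were seen, the highest count of deletion-only regions was 9, on chromosome 6 from 11000001 to 12000000, with 2 wild-type-only regions among 37. A window on chromosome X, from 133000001 to 134000000, held 8 deletion-only regions and 1 wild-type-only region of 28. The highest count of wild-type-only regions was also 9, on chromosome 9 from 89000001 to 90000000, with 1 deletion-only region among 76. A window on chromosome 10, from 80000001 to 81000000, held 7 wild-type-only and 0 deletion-only regions of 65. These counts are values without a test.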
